A study of Mus musculus with 5 samples.

Results

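Nicotinamide nucleotide transhydrogenase (Nnt) and 9 antioxidant enzyme genes (Sod1, Sod2, Cat, Gpx1, Gpx4, Prdx3, Prdx5, Txn2 and Txnrd2) were examined in RNA-seq of mouse tibialis anterior (TA) muscle. They are 10 of the genes in a table of 17015 gene identifiers and fill 11 of its rows, because Nnt is entered under 2 identifiers. The genes were chosen by name, with the comparison between the genotypes in these same libraries already known, so that their differences between the groups are given below as a description. All 11 rows passed the minimum of 0.5 FPKM in the mean of the libraries. FPKM is the number of fragments per kilobase of transcript, scaled for the size of the library.

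The libraries came from TA muscle of sedentary male mice 8 weeks old. There were 3 libraries labelled WT control, which are Cre-negative littermates carrying the floxed gene, and 2 labelled skmNrip1-/-, in which Cre recombinase under the myogenin promoter removes Nrip1 (the gene of the corepressor RIP140) from skeletal muscle fibers. The floxed Nrip1 mice were C57BL/6J and the Cre mice C57BL/6JN. The reference genome is that of C57BL/6J, a strain known to carry a deletion inside Nnt that C57BL/6N mice lack, and which Nnt allele these animals carried is not given in the sources used here. Myogenin-Cre leaves the gene intact in the blood, vessel and connective tissue cells of the muscle.

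Nrip1 (ENSMUSG00000048490), the targeted gene, was read first. Its FPKM was 4.64, 7.69 and 6.55 in WT control and 25.3 and 22.5 in the libraries labelled skmNrip1-/-, higher where the label names a knockout. Nrip1 was itself among the genes called higher by limma (log2 fold change 1.94, SE 0.21, adjusted p = 0.026 by limma). Cre removes exon 4, in which the paper places both the start and the stop codon. This FPKM covers the whole gene and does not separate the deleted part, so that the loss of exon 4 was not measured here. The cause of the higher value was not tested. For this mouse line the paper shows Nrip1 expression and RIP140 protein in gastrocnemius and heart beside WT control. The text names libraries as labelled, and each direction rests on the labels. From the smallest steps between low FPKM values, the fragments per unit of FPKM ran from 0.810 to 1.099 times those of WT control replicate 1. The deposited FPKM were scaled between libraries, so this is not the number of fragments sequenced. The 6 fast muscle markers were high in every library, with a summed FPKM of 65293 to 87775 in WT control and of 60042 and 62227 in the libraries labelled skmNrip1-/-. Their median log2 fold change was -0.25, and 3 of the 6 (Acta1, Ckm and Mylpf) were below every WT control library, a pattern seen in 14.4% of all tested genes. None of the 6 was called by limma or had an unadjusted p of 0.05 or less. In whole tissue, fewer cells of a type and less RNA per cell cannot be told apart.

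Superoxide leaks from the respiratory chain and is turned into hydrogen peroxide by superoxide dismutases, in the matrix by SOD2 and in the cytosol by SOD1. Peroxide is then removed by catalase, by the glutathione peroxidases and by the peroxiredoxins, which draw on glutathione and thioredoxin, and both of these are kept reduced with NADPH. NNT sits in the inner mitochondrial membrane and uses the proton gradient to make NADPH from NADH, which ties the matrix antioxidant supply to respiration.

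Of the 10 genes, Nnt had the largest difference between the groups, but its reading depends on how the table splits the gene. Both identifiers lie on the minus strand of chromosome 13 (GRCm38). ENSMUSG00000025453 spans 119335448 to 119408997 with 5 annotated transcripts, and ENSMUSG00000116207 spans 119335528 to 119408952 with 1 transcript. The transcript of the second row, 3339 bases long, lies whole and without a mismatch inside the 3464-base transcript Nnt-202 of the first row. It lacks only the first 45 and the last 80 bases of that transcript. Both have 17 exons and the same coding sequence of 2505 bases without the stop codon, or 835 codons. These transcript models follow the reference genome, which comes from the strain with the Nnt deletion described above. Any Nnt sequence absent from that genome is in neither row. The FPKM of either row therefore cannot show whether a transcript without the deletion was present. The second row covers 47.45% of the 7037 exonic bases of the first. Nnt-201 and Nnt-203, also of the first row, have 15 and 14 exons and coding sequences of 2163 and 2139 bases. The first 60 coding bases of Nnt-202, in exon 2 (chr13:119404643-119404702, minus strand, GRCm38), are shown as an example of sequence that both rows hold. A fragment that matches Nnt-202 and the second row alike carries nothing that would assign it to one of them. The start codon is in capitals.

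Nnt, both rows: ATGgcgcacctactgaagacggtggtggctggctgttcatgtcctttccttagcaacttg

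The FPKM of the first row was 11.8 in WT control replicate 1, 8.16 in replicate 2 and 3.80 in replicate 3, while the libraries labelled skmNrip1-/- had 43.5 and 42.1. Both of the latter were well above every WT control library, the lower of them by 3.56 times. The FPKM of the second row was 6.97, 0 and 4.46 in WT control and 1.73 and 0 in the libraries labelled skmNrip1-/-, and there the groups overlapped. At the step sizes of these libraries, 1 fragment on the second row's transcript would be worth 0.00623 to 0.00845 FPKM. The values of 4.46 and 6.97 FPKM beside a listed 0 in the same group are thus many such steps away from it, in a row whose sequence the first row also holds.

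The share of the summed Nnt signal placed in the second row was 37.1%, 0% and 54.0% in WT control and 3.82% and 0% in the libraries labelled skmNrip1-/-. The share thus ran from nothing to 54.0% among replicates of WT control alone. With both rows added together, Nnt came to 18.8, 8.16 and 8.26 FPKM in WT control (mean 11.7 ± 6.12, SD, n = 3). It came to 45.3 and 42.1 FPKM in the libraries labelled skmNrip1-/- (mean 43.7 ± 2.21, SD, n = 2). The groups remained apart on this sum, with a ratio of means of 3.72 and the lower skmNrip1-/- library 2.24 times above WT control replicate 1. The log2 fold change was 2.56 (SE 0.42) for the first row, -1.79 (SE 2.01) for the second and 2.0 (SE 0.36) for the sum.

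**Figure D1:**
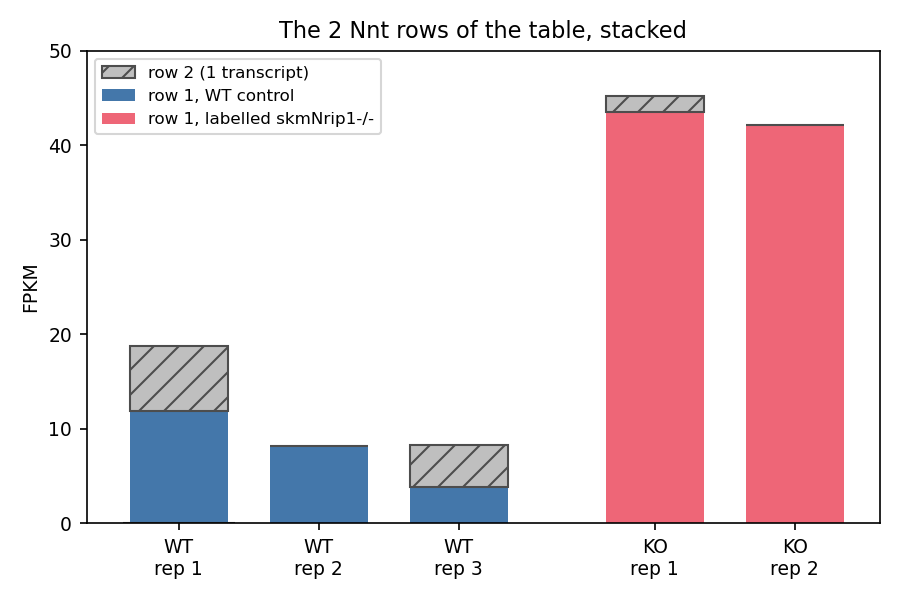
FPKM of Nnt in each library (vertical axis), with the row of 5 transcripts (row 1, colored) and the row of 1 transcript (row 2, hatched) stacked. The WT control bars reach 18.8, 8.16 and 8.26, below the bars of 45.3 and 42.1 of the libraries labelled skmNrip1-/-, while the hatched share differs between replicates of WT control.

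On log2(FPKM + 0.1), the scale of all fold changes here, limma with Benjamini-Hochberg adjustment called 45 of 12148 tested genes higher (0.37%) and 10 lower (0.0823%), a call requiring an adjusted p no higher than 0.05 together with a 1.2-fold difference. The labels do not tie libraries to mice, so that these p-values measure only the spread between the libraries. None of the 11 member rows was called, and 3 of them (Nnt row 1, Cat and Sod2) had an unadjusted p of 0.05 or less, against 6.57% of tested genes on the higher side and 5.33% on the lower. Both libraries labelled skmNrip1-/- were above every WT control library in 4 of the 11 rows, namely Nnt row 1, Sod2, Prdx3 and Cat, and below every one in 0. Over all tested genes these shares were 15.8% above and 14.4% below. The WT control values of Nnt were the most scattered of the group outside its second row, with a coefficient of variation of 50.7% in the first row against 4.98% to 21.2% in the other 9 genes.

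**Figure D2:**
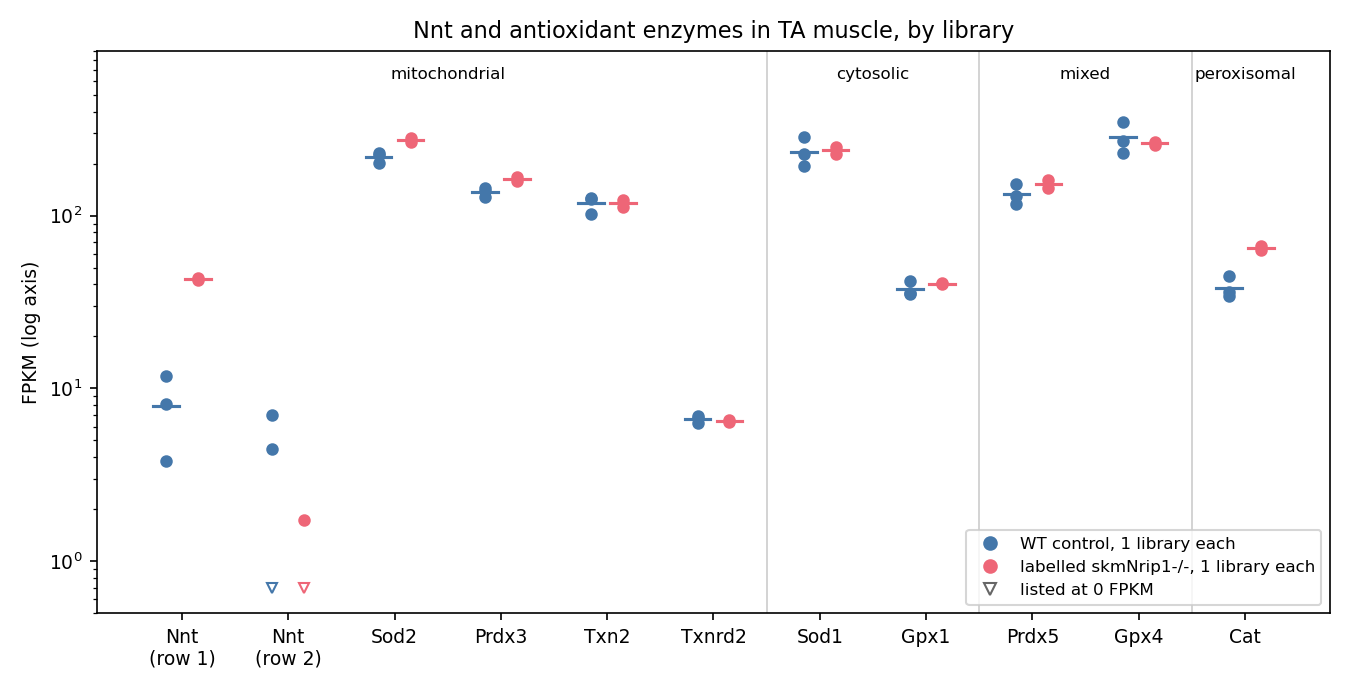
FPKM of each member in each library (log axis) with group means as bars; triangles mark a listed 0. The libraries labelled skmNrip1-/- lie above all WT control libraries for Nnt row 1, Sod2, Prdx3 and Cat, and the groups overlap for the other 7 rows.

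Among the mitochondrial enzymes, the manganese superoxide dismutase Sod2 (ENSMUSG00000006818, chromosome 17, 13006846 to 13040063) had an FPKM of 200.5, 230.6 and 223.9 in WT control and of 280.3 and 265.8 in the libraries labelled skmNrip1-/-. The groups did not overlap, the means stood 25.1% apart, and the log2 fold change was 0.32 (SE 0.11). Prdx3 (ENSMUSG00000024997, chromosome 19, 60864051 to 60874556), the matrix peroxiredoxin that removes hydrogen peroxide with thioredoxin 2, had an FPKM of 144.6, 138.2 and 128.0 in WT control. It had 167.1 and 158.4 in the libraries labelled skmNrip1-/-, again without overlap, and the log2 fold change was 0.25 (SE 0.11). Rescaled to TPM, the log2 fold changes of Sod2 and Prdx3 were 0.03 and -0.05, or 0.32 and 0.24 above the median of all tested genes. After that rescaling the groups overlapped for both genes. On the deposited scale, the reductants of Prdx3 did not separate the groups. Txn2 (ENSMUSG00000005354), the mitochondrial thioredoxin, read 127.0, 102.4 and 125.5 FPKM in WT control against 122.7 and 112.6, a log2 fold change of -0.00 (SE 0.13). Txnrd2 (ENSMUSG00000075704), the selenoenzyme that reduces thioredoxin 2 with NADPH, read 6.96, 6.32 and 6.78 FPKM against 6.58 and 6.37, a log2 fold change of -0.04 (SE 0.11). It was the steadiest of the genes across WT control.

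Among 11 genes of mitochondrial structure taken as a reference (citrate synthase, porins, import and inner membrane proteins), 10 had a log2 fold change above 0, with a median of 0.15. None was called by limma, and 3 had an unadjusted p of 0.05 or less, all on the higher side, against 6.57% of all tested genes. Both libraries labelled skmNrip1-/- were above every WT control library in 5 of the 11, against 15.8% of all tested genes, and below in 0. Their highest was Hspd1, a matrix chaperone, at 0.40 (SE 0.13), and their lowest Tomm20, an import receptor, at -0.04 (SE 0.14). The log2 fold changes of Sod2 and Prdx3 lie within the range of these 11 genes, and that of Nnt row 1 lies above it. How far mitochondrial content moves with the member values was not tested.

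The cytosolic enzymes overlapped between the groups. Sod1 (ENSMUSG00000022982), the copper and zinc superoxide dismutase, read 283.5, 194.0 and 226.2 FPKM in WT control and 250.2 and 226.4 in the libraries labelled skmNrip1-/-. The fitted difference was 0.04 (SE 0.17) on the log2 scale. Gpx1 (ENSMUSG00000063856), the glutathione peroxidase found mostly in the cytosol, read 42.0, 35.4 and 35.7 FPKM against 40.1 and 40.5, a log2 fold change of 0.10 (SE 0.12). WT control replicate 1 gave the highest value of both genes.

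Prdx5 and Gpx4 each make protein for more than 1 compartment. Prdx5 (ENSMUSG00000024953), a peroxiredoxin of mitochondria, peroxisomes and cytosol, read 153.0, 116.1 and 129.1 FPKM in WT control and 160.7 and 144.6 in the libraries labelled skmNrip1-/-, a log2 fold change of 0.21 (SE 0.14). Its exons share 409 bases, 19.1% of their length, with Trmt112 on the other strand, and no strand-specific protocol is stated. Trmt112 itself read 16.1 to 23.3 FPKM in WT control and 14.2 and 17.6 in the other group. Gpx4 (ENSMUSG00000075706), the selenoenzyme that reduces lipid hydroperoxides in membranes, read 349.2, 231.4 and 269.4 FPKM against 267.3 and 257.1, a log2 fold change of -0.09 (SE 0.18). Its annotated pseudogene Gpx4-ps2 stayed under 1 FPKM in all libraries, at 0.273 to 0.748.

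Catalase is the peroxisomal member. The FPKM of Cat (ENSMUSG00000027187, chromosome 2, 103453849 to 103485160) was 34.1, 44.7 and 36.0 in WT control and 63.1 and 66.9 in the libraries labelled skmNrip1-/-. The groups did not overlap, the ratio of means was 1.70, and the log2 fold change was 0.77 (SE 0.14). After Nnt this was the widest separation, and the lower skmNrip1-/- library stood 1.41 times above WT control replicate 2.

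Red blood cells also carry much catalase. Of 5 erythroid markers tested, 4 (the hemoglobin genes) were above every WT control library in both libraries labelled skmNrip1-/-, as were 15.8% of all tested genes. None of the 5 was called by limma, and 3 had an unadjusted p of 0.05 or less. Their log2 fold changes ran from 0.49 to 0.55, and with Alas2 the median was 0.51. The summed FPKM of the 6 listed markers was 511.1 to 764.3 in WT control and 827.4 and 995.6 in the other group, while the red cell membrane gene Slc4a1 stayed at 0.0239 to 0.0884. Prdx2, a peroxiredoxin abundant in red cells, overlapped between the groups at 75.3 to 90.0 FPKM against 84.3 and 90.4. The part of blood in the Cat values was not tested.

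Of the 5 slow muscle markers, Myl2 alone separated the groups, at 2.03, 1.85 and 9.68 FPKM in WT control against 42.1 and 33.6. Over all tested genes, 15.8% were above every WT control library in this way. Myh7, the defining myosin of slow fibers, was at 0.449 to 1.72 in all libraries. The macrophage, adipocyte, fibroblast and hepatocyte markers overlapped between the groups. Of the endothelial markers 1 of 5, Emcn, was lower in both libraries labelled skmNrip1-/-, by a log2 difference of -0.14 (SE 0.11). Among all tested genes, 14.4% were below every WT control library.

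**Figure D3:**
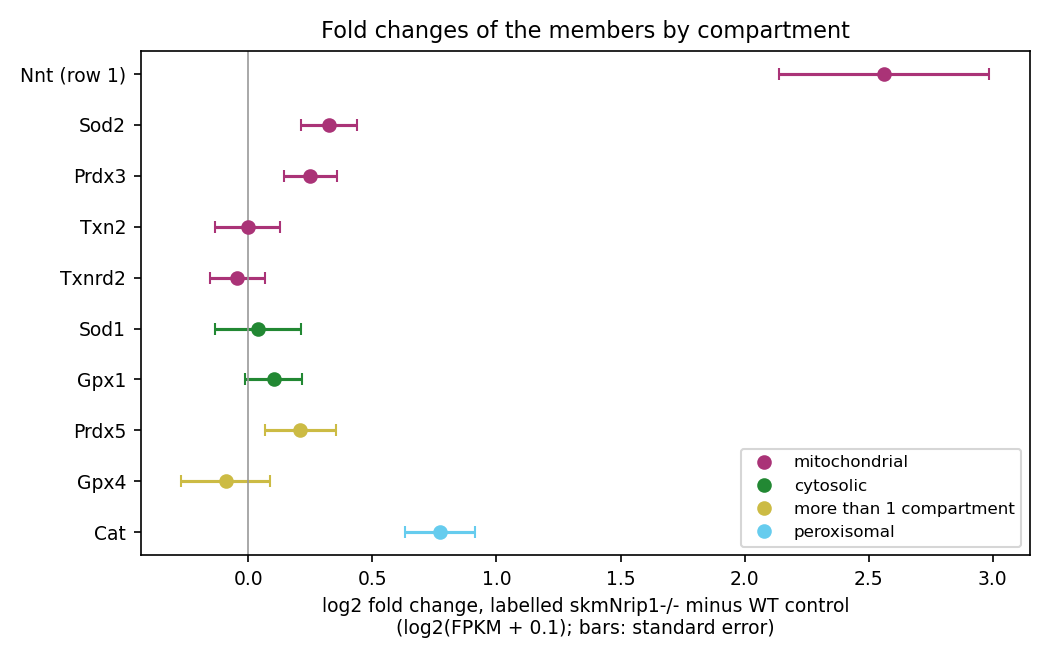
Log2 fold change of each member (points, horizontal axis) with its standard error, colored by compartment, for libraries labelled skmNrip1-/- minus WT control. Nnt row 1 lies at 2.56 and Cat at 0.77, and the other 8 genes between -0.09 and 0.32; rescaling to TPM, which moved the median of all tested genes to -0.29, put Prdx3, Prdx5, Sod1 and Gpx1 below 0 but left them 0.24, 0.20, 0.03 and 0.09 above that median.

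The mitochondrial and cytosolic members were then set against each other. The 6 mitochondrial rows had a median log2 fold change of 0.12 and the 2 cytosolic genes one of 0.07, a difference of 0.05. Taken library by library against the WT control mean, the same difference was -0.13, 0.14 and 0.08 in WT control and 0.20 and 0.04 in the libraries labelled skmNrip1-/-. It was smaller than its own spread between replicates (pooled SD 0.13), and without WT control replicate 1 it came to -0.02. With the Nnt rows summed it was 0.18. By amount, the mitochondrial rows made up 36.6%, 43.9% and 41.4% of the members' summed FPKM in WT control and 44.3% in each library labelled skmNrip1-/-. The cytosolic pair made up 20.7% to 23.9% and 20.2% to 20.7%.

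Ratios between partners within a library remove the scaling between libraries. Sod2 over Sod1 was 0.707, 1.19 and 0.990 in WT control and 1.12 and 1.17 in the libraries labelled skmNrip1-/-, and the groups overlapped. Cat over Gpx1, 2 routes of peroxide removal, was 0.812, 1.26 and 1.01 against 1.57 and 1.65, with no overlap. Prdx3 over Prdx5, Gpx4 over Gpx1 and Txn2 over Txnrd2 all overlapped.

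By level in WT control, the order of the members per kilobase was Gpx4, Sod1, Sod2, Prdx3, Prdx5, Txn2, Cat, Gpx1, Nnt (row 1) and Txnrd2. The ranges of neighbors in this order overlapped except between Sod2 and Prdx3, between Txn2 and Cat, and between Gpx1 and Nnt. Gpx4 ran from 231.4 to 349.2 FPKM and Txnrd2 from 6.32 to 6.96. In the libraries labelled skmNrip1-/-, Nnt row 1 at 42.1 to 43.5 FPKM was above Gpx1 at 40.1 to 40.5, and Sod2 at 265.8 to 280.3 was above Sod1 at 226.4 to 250.2.

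The rest of the redox system was read from 9 lists of 73 genes, of which 71 were tested. limma called 1 of the 71 higher and 0 lower, while 14 had an unadjusted p of 0.05 or less on the higher side and 5 on the lower. Over all tested genes, 0.37% were called higher and 0.0823% lower, and 6.57% and 5.33% had such an unadjusted p. The called gene was Idh2, the matrix NADP-dependent isocitrate dehydrogenase that makes NADPH beside NNT. Idh2 read 115.1, 143.7 and 114.2 FPKM in WT control and 255.0 and 237.1 in the libraries labelled skmNrip1-/-, a log2 fold change of 0.99 (SE 0.14, adjusted p = 0.0485 by limma). Its call was kept in 4 of 13 alternative settings, in which its adjusted p by limma ran from 0.0324 to 0.348. The call was lost on leaving out WT control replicate 1 (adjusted p = 0.102 by limma), WT control replicate 3 (0.211), or replicate 1 (0.348) or 2 (0.324) labelled skmNrip1-/-, where its log2 fold change ran from 0.93 to 1.04. The summed Nnt signal over Idh2 was 0.163, 0.0568 and 0.0723 in WT control and 0.178 in both other libraries.

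Of the 11 mitochondrial redox partners, 8 had a log2 fold change above 0 and the median was 0.18, against -0.00 over all tested genes. Beside Idh2, the mitochondrial NAD kinase Nadk2 stood at 0.44 (SE 0.11, adjusted p = 0.23 by limma) with no overlap of its libraries. The lowest was Glrx2, a mitochondrial glutaredoxin, at -0.29 (SE 0.16). All 10 cytosolic thioredoxin and peroxiredoxin genes had values above 0, from Txn1 at 0.01 to the thioredoxin-binding protein Txnip at 0.77 (SE 0.22), with a median of 0.20. Only 3 of the 10 were above every WT control library in both libraries labelled skmNrip1-/-, against 15.8% of all tested genes, and 0 were called. After rescaling to TPM the median of all tested genes itself was -0.29, and the directions given here are those on the deposited scale.

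The 9 genes of glutathione synthesis and use had a median of 0.26, with 5 above 0. Mgst1, a membrane-bound glutathione transferase, was highest at 29.6, 40.1 and 28.2 FPKM in WT control against 64.5 and 61.7, a log2 fold change of 0.97 (SE 0.17, adjusted p = 0.0959 by limma). Gstm1, a cytosolic glutathione transferase, was lowest at -0.34 (SE 0.12). The rate-limiting step of glutathione synthesis, Gclc and Gclm, stood at -0.01 and -0.22.

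In the remaining lists the medians were 0.03 for secreted and ER enzymes, -0.07 for the NRF2 system, 0.04 for cytosolic NADPH sources, -0.11 for metal handling and sestrins, -0.01 for producers of superoxide and peroxide and -0.00 for other selenoproteins. No gene of these 6 lists was called. The lowest was Selenow, a small selenoprotein abundant in muscle, at 1475, 839 and 1333 FPKM in WT control against 736 and 678 (log2 fold change -0.74, SE 0.25). Selenop, the selenium carrier, was highest of its list at 0.53 (SE 0.12). Gpx3, the secreted glutathione peroxidase, read 103.7, 92.4 and 79.0 FPKM against 62.21 and 66.03 (log2 fold change -0.51, SE 0.14), and Prdx4 was the highest of that list at 0.14 (SE 0.19). In the NRF2 system, Nfe2l2 itself was highest at 0.26 (SE 0.13) and heme oxygenase Hmox1 lowest at -0.31 (SE 0.17). Of the NADPH sources, Idh1 stood at 0.25 (SE 0.13) and the malic enzyme Me1 at -0.28 (SE 0.18). Among the producers, the oxidase Nox4 stood at 0.48 (SE 0.19) and xanthine dehydrogenase Xdh at -0.45 (SE 0.11). The copper chaperone of SOD1, Ccs, stood at 0.19 (SE 0.14) and metallothionein Mt2 at -0.26 (SE 0.20).

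**Figure D4:**
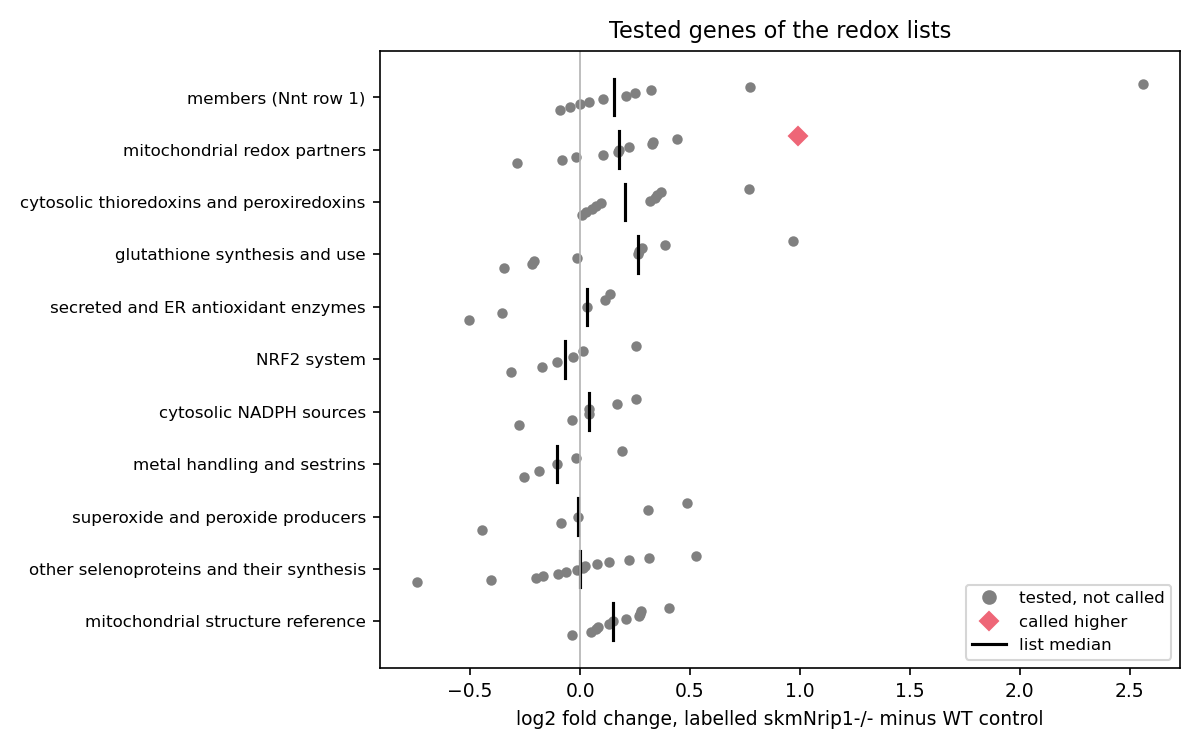
Log2 fold change (horizontal axis) of every tested gene in each redox list, with the list median as a black bar and called genes as diamonds. Idh2, at 0.99 in the mitochondrial partners, is the called gene; Nnt row 1 lies farthest to the right and was not called.

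The genes around Nnt were read next, since the table allows a look at its chromosomal setting. Within 2 Mb of Nnt the table holds 14 other genes, of which 7 passed the FPKM minimum. Their log2 fold changes ran from -0.61 to 0.21, none was called, and the groups overlapped for all 7. Most tested genes behave in this way: 0.37% were called higher and 0.0823% lower, and the groups were apart in 15.8% above and 14.4% below. Paip1, whose start lies 19.6 kb from that of Nnt, read 37.5, 31.0 and 29.1 FPKM in WT control and 31.5 and 32.0 in the libraries labelled skmNrip1-/-. The extremes were Tmem267 at -0.61 (SE 0.34) and Hmgcs1, the cytosolic HMG-CoA synthase, at 0.21 (SE 0.14). The other four, Mrps30, 4833420G17Rik, Nim1k and Zfp131, lay between -0.11 and 0.10.

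**Figure D5:**
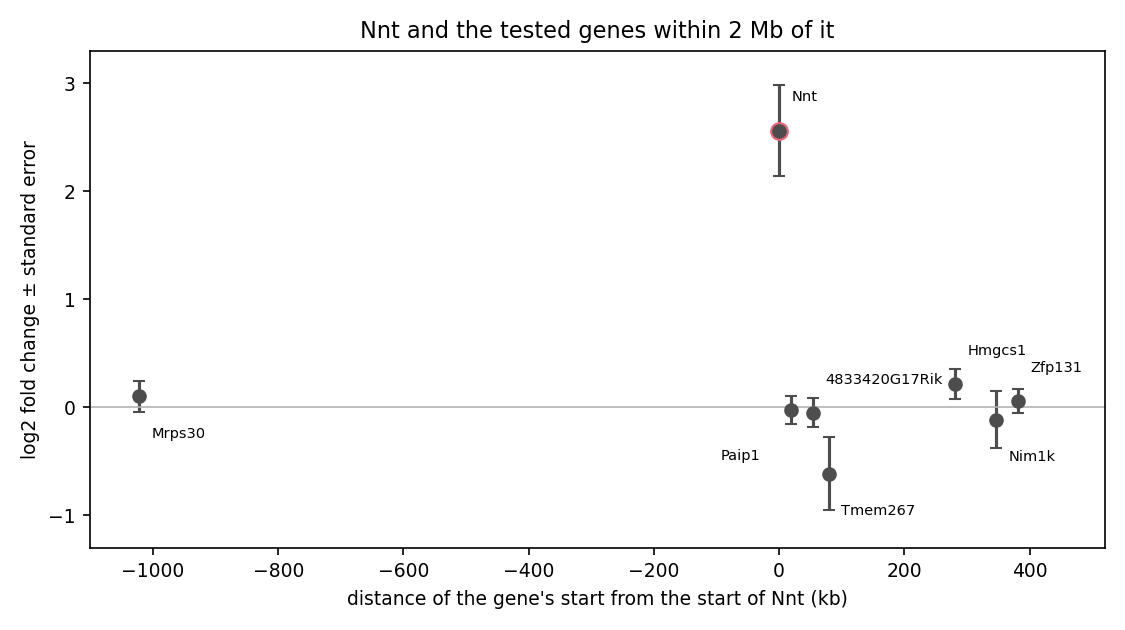
Log2 fold change with standard error (vertical axis) of Nnt row 1 and the 7 tested genes within 2 Mb, against the distance of each gene's start from that of Nnt in kb. Nnt lies at 2.56 and its neighbors between -0.61 and 0.21.

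The genes whose 5 libraries followed Nnt row 1 most closely were found by the root mean square difference of log2(FPKM + 0.1), each gene centered on its own mean. They were Actc1 at 0.29, Adig at 0.31, BC048679 at 0.34, Mib1 at 0.43 and Slc15a5 at 0.44 on the log2 scale, over 5 libraries. The cardiac actin Actc1 read 98.0, 74.8 and 49.6 FPKM in WT control against 492.9 and 313.3. For the second Nnt row the closest were Gm6654 (0.67), Gm43802 (0.75), Gm6741 (0.99), Gm45893 (1.11) and Hsp25-ps1 (1.59). All 5 of these are listed at 0 in both WT control replicate 2 and the library labelled skmNrip1-/- replicate 2, as the second Nnt row is.

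Promoter sequences of 9 members were at hand from RefSeq (GRCm38.p6), in 12 windows of 250 bases before the start site, and Nnt had none. They were searched on both strands for the ERR element TNAAGGTCA, for the core of the antioxidant response element TGACNNNGC and for a direct repeat of the half-site AGGTCA with 1 base between (DR1). The ERR element was found in 0 of the 12 windows and in 1.14% of 32851 mouse promoters, and the direct repeat in 0 of 12 and in 0.0335%. The antioxidant response core was found in 1 of 12, that of Sod1, and in 10.2% of all promoters. Several of the 12 windows belong to Gpx4 and some of those overlap, so they are not 12 independent promoters. The Sod1 stretch around it (chr16:90220686-90220734, plus strand, GRCm38.p6) is shown with the match in capitals, in reverse complement, its first base 56 bases before the start site. Sod1 overlapped between the groups.

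Sod1 promoter: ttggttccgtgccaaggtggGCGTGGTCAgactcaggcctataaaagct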

How the data were processed

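The table that the authors deposited has 3 WT control columns and 2 columns labelled skmNrip1-/-, while the legend of the paper gives n = 3 per group. Any other library was not analysed here. The authors quantified the paired-end reads with Salmon 1.10.2 on mm10, summarised to genes with tximport and ran DESeq2 1.44.0. The deposited values are FPKM per gene and library. The annotation release is not given in the sources used here. The median over genes of each library's FPKM relative to their geometric mean was 1.00 everywhere, so the deposited FPKM were scaled between libraries. The table's log2 fold changes and adjusted p-values by DESeq2 were not used, and 0 sample columns were left unmapped. The table holds no fragment counts. The step size of low values in single-transcript genes gave only the relative number of fragments per unit of FPKM, not the total depth. No counting interval is given.

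Libraries were grouped by their labels. log2(FPKM + 0.1) was fitted for the 12148 genes that reached 0.5 FPKM on average, with limma 3.58.1 (R 4.3.3; eBayes with trend, no covariates, Benjamini-Hochberg). Genes were called at the authors' thresholds, an adjusted p of 0.05 and a fold change of 1.2. An exact permutation test of 2 libraries against 3 cannot go below 0.1. Fold changes on this scale understate those of low genes. On simulated data with 200 changed genes among 12148, limma recovered 76 of 89 with a log2 change of 2, and 55 of 111 with a change of 1, beside 5 false calls. The simulated noise was independent between libraries, and its SDs were shuffled across genes, which breaks their link to expression level. These counts therefore do not give the recovery of low or scattered genes such as Nnt. Positions and transcripts came from GENCODE M21 (GRCm38), which holds 17008 of the 17015 identifiers.

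The members and lists were chosen with earlier results of these data known. Named genes were every member row, Nrip1, the called genes and both extremes of each list, the tested genes within 2 Mb of Nnt, and the 5 genes nearest each Nnt row; other genes named (Nadk2, Gclc, Gclm, Slc4a1, Myh7, Prdx2, Emcn, Gpx4-ps2 and Trmt112) were chosen after their values were seen. Other settings tried were pseudocounts of 1 and 0.01, a minimum of 1 FPKM or none, rescaling to TPM, no trend, the replicate number as a block, summed rows, and leaving out each library. Some results are not reported here.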

Additional observations from a re-analysis of the deposited data

How the results depend on the processing

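Against 45 genes called higher and 10 lower, 22 and 3 were called without the trend in eBayes. Rescaling to TPM called 63 lower, and 1 redox gene lower (Gpx3). Leaving out 1 library gave 6 to 55 genes higher, 3 to 16 lower and 0 to 2 redox genes higher. The fewest higher calls came without the libraries labelled skmNrip1-/- replicate 2 (6) and replicate 1 (8), followed by 19 without WT control replicate 3 and 27 without WT control replicate 1. Without WT control replicate 2, Mgst1 joined Idh2. Of the redox genes, 0 were called higher with a pseudocount of 0.01, no minimum, TPM or no trend. With the replicate block, 18 genes were called higher, 4 lower and 0 redox genes. The replicate numbers are shared by 2 libraries of each group only and nothing says that they mark a shared mouse, litter or day, so the pairing may be only a number. The correlation of deviations was 0.06 and 0.10 for same-numbered libraries. The same WT control libraries gave -0.06 and -0.10 with the other library labelled skmNrip1-/-. Deviations of only 2 libraries from their mean mirror each other, so these values are tied. They cannot show whether the libraries are paired.

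The difference between mitochondrial and cytosolic members ran from -0.0246 to 0.195 on leaving out 1 library, with 0.195 without the library labelled skmNrip1-/- replicate 2, and was 0.03 with Gpx4 and Prdx5 counted as mitochondrial. Nnt row 1 stayed between 2.11 and 2.92 in 12 settings and passed limma's thresholds in 3 of them, TPM, the block and without WT control replicate 3. No other library shares the number of WT control replicate 3, so the block takes it out of the comparison. Both of these settings gave 2.11 and are not independent of each other. That library had the lowest Nnt row 1 value, 3.80 FPKM. Cat stayed between 0.47 and 0.89 in 12 and passed in 1, without WT control replicate 2. The second Nnt row ran from -3.89 to 0.31. The causes were not tested.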
